A study of Mus musculus with 8 samples.

Results

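The 10 transcription factor genes described here were the nuclear factor I (NFI) genes Nfia, Nfib and Nfix and the hippocampal regulators Zbtb20, Zbtb18, Prox1, Lef1, Meis1, Meis2 and Mef2c, out of 27998 genes in the matrix. They were chosen by name, with earlier results of these data known. Their levels were compared over 3 classes of barcodes, each barcode standing for 1 captured cell. Barcodes with at least 5 Reln UMIs (unique molecular identifiers, each counting 1 captured transcript) per 10000 were the Reln-high class. Barcodes with at least 5 Neurod1 UMIs per 10000, at least 1 Lhx9 UMI and less Reln than that were the Neurod1-high Lhx9-positive class. The remaining neurons were the third class. Reln, Neurod1 and Lhx9 therefore defined the classes, and their own levels are not results.

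All cells came from the cortex of mouse embryos at E15.5, of the strain Tg(Ebf2-EGFP)FB58Gsat, and every cell was sorted for EGFP, a reporter that a transgene places under Ebf2 regulatory sequence. About 8 embryos from 2 pregnant mice were used. The labels name 8 samples of 1 group, but their cells form 1 matrix with no map from barcodes to samples, so no replicate error could be had and no test was run. All intervals given are at 95% and cover only counting error, and classes were compared by size alone, with a 2-fold difference as the mark.

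The NFI proteins bind DNA as dimers and are known for the timing of neuronal and glial differentiation in the developing forebrain, where loss of Nfia, Nfib or Nfix disturbs the hippocampus. Zbtb20 is a repressor required for hippocampal pyramidal cell identity, and Prox1 marks and maintains dentate granule neurons. Lef1, which acts in the nucleus at the end of the Wnt pathway, is needed for dentate gyrus formation, while Meis1 and Meis2 are homeodomain transcription factors and Mef2c is a MADS-box factor of cortical neuron maturation.

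The classes held 88 Neurod1-high Lhx9-positive barcodes, 464 Reln-high barcodes and 2357 other neurons of 2931 kept barcodes. A further 8 barcodes passed both gates and were left out of the 3 classes, as were 11 barcodes with progenitor genes, 2 with non-neuronal genes and 1 with haemoglobin. Depth differed between the classes, with a median of 19271 UMIs per barcode in the Neurod1-high Lhx9-positive class, 21309 in the Reln-high class and 15157 in other neurons. Barcodes above 25000 UMIs made up 20.5%, 38.6% and 9.50% of the classes. Between 4 and 6 UMIs per 10000, close to the cut of 5, lay 23 barcodes for Reln and 63 for Neurod1. Apart from Reln, which set the gates, 7 Cajal-Retzius (CR) markers were listed (Trp73, Lhx5, Lhx1, Ndnf, Nhlh2, Cxcr4 and Calb2), and all 7 were at least 2-fold higher in Reln-high barcodes than in other neurons. The Neurod1-high Lhx9-positive class had 3 of the 7 at that size (Nhlh2, Cxcr4 and Calb2). Lhx5 was at least 2-fold lower there, on 6 UMIs, Lhx1 had 0 UMIs, and Trp73 and Ndnf differed by less than 2-fold. Of all genes with at least 10 UMIs in the pair of classes, 11.1% were at least 2-fold higher in Reln-high barcodes. In the Neurod1-high Lhx9-positive class 8.48% were higher and 7.11% lower. The 7 genes together had a median of 7.25 UMIs per 10000 in that class, against 21.3 in Reln-high barcodes and 0.692 in other neurons. Calb2 alone had a median of 5.61 UMIs per 10000 in the Neurod1-high Lhx9-positive class. Ebf2 RNA itself was at 35.7 UMIs per 1000000 UMIs (CPM) in Reln-high barcodes, at 2.57 CPM in other neurons and at a single UMI in the Neurod1-high Lhx9-positive class, although all barcodes came from the same EGFP gate.

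Zbtb20, Prox1 and Lef1 were higher together in the Neurod1-high Lhx9-positive class, and the 250 bases before their annotated starts are shown for that reason. The stretches come from RefSeq on GRCm38.p6 and run from 5′ to 3′ on each gene's strand, and where RefSeq lists several starts the most upstream one was taken. They lie at chr16:43247034-43247283 (plus strand) for Zbtb20, inside the annotated gene, at chr1:190170828-190171077 (minus strand) for Prox1 and at chr3:131110047-131110296 (plus strand) for Lef1. For Prox1 and Lef1 the RefSeq start lies upstream of the GENCODE gene whose coordinates are given below. The bases after it were found in no GENCODE transcript of the gene. Capitals mark matches on either strand to the E-box CANNTG, the core bound by Neurod1 and other basic helix-loop-helix factors, or to TTGGC, the core of an NFI site.
Zbtb20: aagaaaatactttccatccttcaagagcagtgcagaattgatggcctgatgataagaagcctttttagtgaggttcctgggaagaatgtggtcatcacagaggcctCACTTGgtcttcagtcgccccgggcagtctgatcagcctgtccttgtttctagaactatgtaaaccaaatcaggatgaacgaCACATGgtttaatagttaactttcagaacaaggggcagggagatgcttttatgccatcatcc
Prox1: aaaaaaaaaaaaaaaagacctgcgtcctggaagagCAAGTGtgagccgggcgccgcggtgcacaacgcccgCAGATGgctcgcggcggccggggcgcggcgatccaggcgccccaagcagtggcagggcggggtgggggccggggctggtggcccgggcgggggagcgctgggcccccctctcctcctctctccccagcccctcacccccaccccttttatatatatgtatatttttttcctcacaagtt
Lef1: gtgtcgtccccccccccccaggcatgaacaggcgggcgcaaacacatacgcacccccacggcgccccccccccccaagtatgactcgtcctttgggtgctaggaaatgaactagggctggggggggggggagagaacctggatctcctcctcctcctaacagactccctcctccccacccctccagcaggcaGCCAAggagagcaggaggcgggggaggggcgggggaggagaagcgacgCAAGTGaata
Each stretch held an E-box, with 2 matches before Zbtb20, 2 before Prox1 and 1 before Lef1. An E-box was found in 66.2% of all 32851 stretches of this length, so its presence does not set these genes apart. TTGGC had 1 match before Lef1, 0 before the others, and was found in 41.5% of all stretches. The MEIS core TGACAG, held by 15.9% of all stretches, and the LEF/TCF core CTTTGA, held by 13.8%, were in none of the 3. These matches describe letters only, and the counts, taken from the 3′ ends of transcripts, do not show which start was used. RefSeq entries were found for 9 of the 10 genes, Nfib being without one.

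In the Neurod1-high Lhx9-positive class 3 of the 10 genes were at least 2-fold higher than in other neurons (Zbtb20, Prox1 and Lef1), against 4.12% of the 10709 genes with at least 100 UMIs in the pair of classes. Another 3 were at least 2-fold lower (Meis1, Meis2 and Mef2c), against 7.34% of all genes. In the Reln-high class 2 were higher (Zbtb20 and Lef1), against 7.59% of 11183 genes, and 4 were lower (Zbtb18, Meis1, Meis2 and Mef2c), against 5.57%. Between the Neurod1-high Lhx9-positive and the Reln-high class, 3 genes were higher in the former (Zbtb20, Zbtb18 and Prox1), against 3.78% of 8863 genes, and 0 were lower, against 9.3%. The comparisons with other neurons share that class, and the 10 genes were chosen with earlier results of these data known. The calls of Meis1 rested on a single cluster of 179 barcodes led by Snhg11, and without that cluster the genes lower numbered 2 and 3 in place of 3 and 4. The median log2 ratio of all genes was 0.12 for Reln-high barcodes and -0.01 for Neurod1-high Lhx9-positive barcodes, both over other neurons, and the medians of the 10 genes were -0.17 and 0.14.

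**Figure D1:**
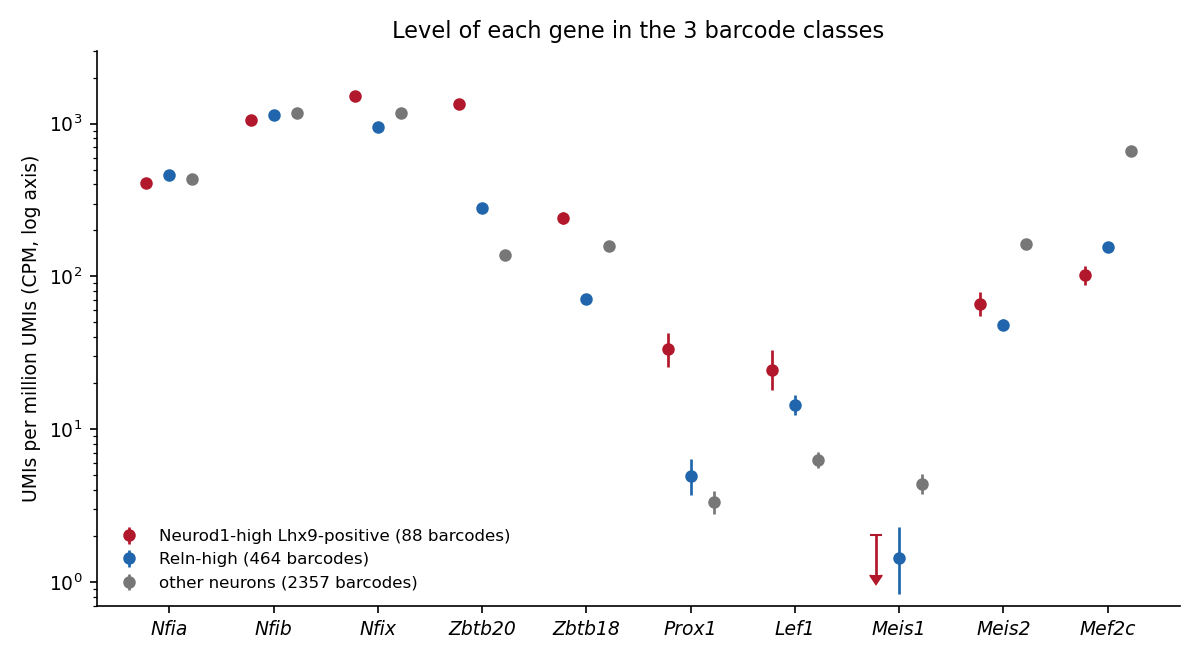
Level of the 10 genes in Neurod1-high Lhx9-positive barcodes (red), Reln-high barcodes (blue) and other neurons (grey), in CPM on a log axis. Points are summed levels, bars are exact Poisson intervals at 95%, and the red arrow at Meis1 is the upper limit of 2.02 CPM that 0 UMIs allow. The 3 NFI genes sit close together in all classes, while Zbtb20 runs from 139 to 1352 CPM and Mef2c from 102 to 659 CPM.

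**Figure D2:**
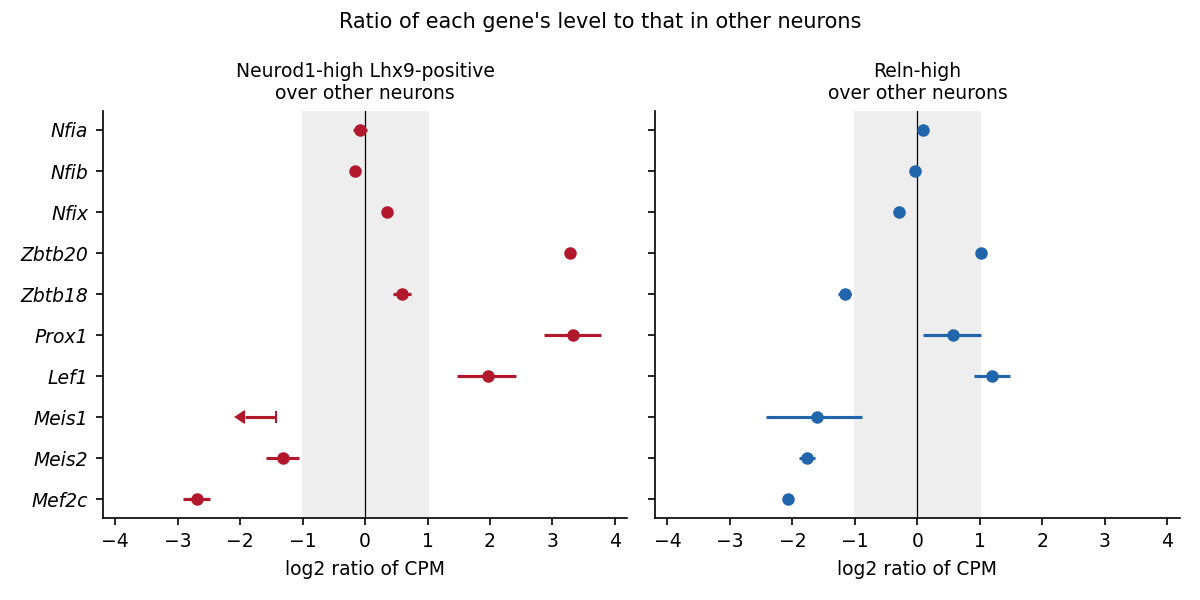
log2 ratio of CPM in each class over other neurons, with exact conditional intervals at 95%; grey marks ratios under 2-fold. Zbtb20 and Prox1 lie above 3 in the Neurod1-high Lhx9-positive class, and in Reln-high barcodes Mef2c has the lowest point, at -2.07; the arrow at Meis1 starts at the bound given by 3 counts.

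The NFI genes were expressed in nearly every neuron of all classes and differed little between them. Nfia (chr4:97772734-98118874 on the plus strand, GRCm38) was at 408 CPM (379 to 439) in Neurod1-high Lhx9-positive barcodes, 460 CPM (448 to 473) in Reln-high barcodes and 432 CPM (425 to 438) in other neurons. Nfib (chr4:82290173-82705750 on the minus strand) was at 1051, 1148 and 1180 CPM in the same order. Nfix (chr8:84699876-84800344 on the minus strand) was at 1506 CPM (1450 to 1563), 954 CPM (936 to 971) and 1176 CPM (1165 to 1187). Of these 3, Nfix had the widest spread, at 1.58-fold (1.51 to 1.65) higher in Neurod1-high Lhx9-positive than in Reln-high barcodes, which is less than 2-fold. Of the UMIs summed over the 3 genes, Nfix gave 50.8% in the Neurod1-high Lhx9-positive class, 37.2% in Reln-high barcodes and 42.2% in other neurons. The fourth family member, Nfic, was far less abundant, at 18.6, 14.9 and 11.6 CPM, and its highest and lowest level lay 1.6-fold (1.095 to 2.27) apart. Thus 0 of 4 NFI family genes reached 2-fold in either comparison with other neurons. Most genes with at least 100 UMIs did not reach it either. In the Neurod1-high Lhx9-positive class 4.12% of them were higher and 7.34% lower, and in Reln-high barcodes 7.59% and 5.57%.

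To set barcodes of unequal depth side by side, each was thinned at random to 10000 UMIs, which all barcodes reached. The sum of Nfia, Nfib and Nfix then had a median of 29.5 UMIs in Neurod1-high Lhx9-positive barcodes (lowest 7, highest 62), 25 in Reln-high barcodes (1 to 62) and 28 in other neurons (0 to 82). The ranges of the classes overlapped almost in full. All 3 NFI genes had a UMI in 95.5% of Neurod1-high Lhx9-positive barcodes, 90.3% of Reln-high barcodes and 89.1% of other neurons. A yardstick for free RNA is Hba-a1, a haemoglobin gene that neurons should lack, which had a UMI in 7.95% to 16.0% of the thinned barcodes of the 3 classes.

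Barcodes poor in NFI RNA were gathered in a single cluster. K-means clustering on the most variable genes, made without the 10 genes, gave 8 clusters, which are called here by their leading gene. In the Snhg11-led cluster of 179 barcodes, Nfia was at 107 CPM, Nfib at 285 CPM and Nfix at 191 CPM, the lowest of the 7 clusters with over 100 barcodes. The thinned NFI sum had a median of 2 UMIs there, against medians of 20 to 35 in the other 6. All 3 NFI genes were detected in 22.3% of its barcodes and in 90.03 to 95.6% of those of the other 6 clusters. All 15 barcodes without any NFI UMI after thinning lay in the Snhg11-led cluster, at a median depth of 16709 UMIs for the cluster. Of 6 interneuron markers (Gad1, Gad2, Dlx1, Dlx2, Dlx5 and Lhx6), 5 were at least 2-fold higher in this cluster than in all other barcodes. So were 3 of 6 upper-layer markers and 1 of 8 deep-layer markers, and the share over all genes was not computed for clusters. The summed level of the interneuron markers was low all the same, at 33.2 CPM in the cluster's other neurons against 2.97 CPM in other neurons outside it. A UMI of these markers was found in 8.45% and 2.3% of thinned barcodes. The cluster was left without a cell type name. It held 36 Reln-high barcodes, with a median NFI sum of 6.5 UMIs, and 142 other neurons, with a median of 2.

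**Figure D3:**
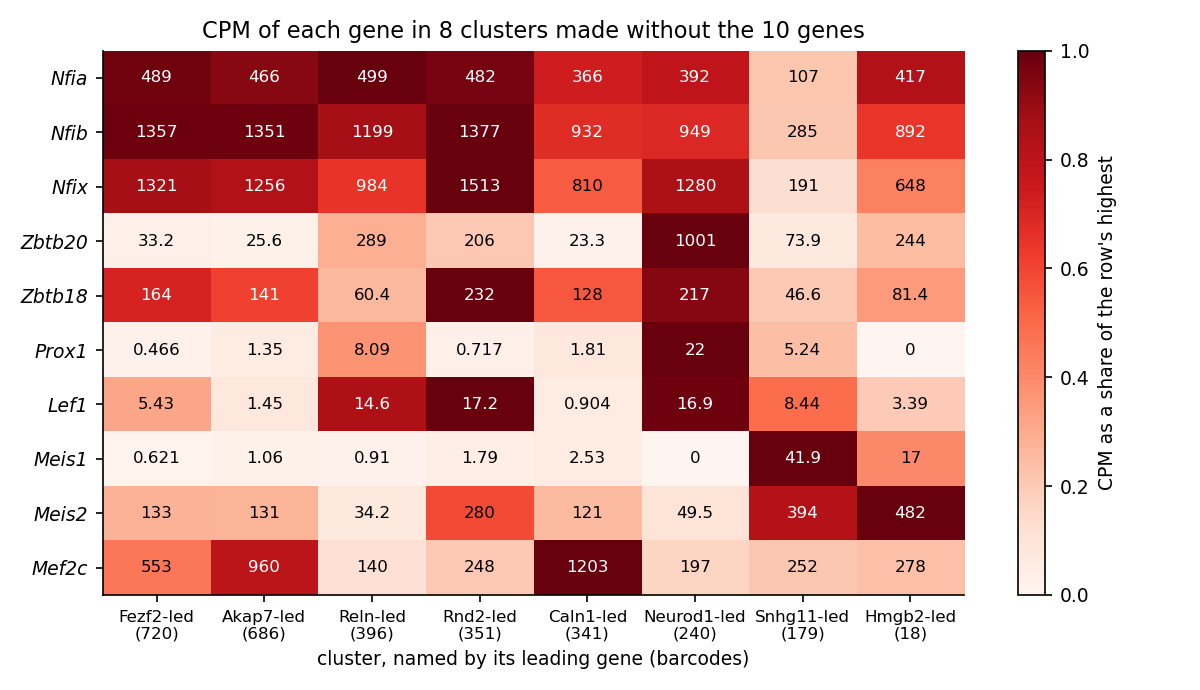
CPM of the 10 genes in 8 K-means clusters made without them. Columns carry the leading gene and the number of barcodes, numbers are CPM, and colour is the level as a share of the row's highest. The NFI genes are lowest in the Snhg11-led cluster, where Meis1 is highest at 41.9 CPM, and Zbtb20 and Prox1 are highest in the Neurod1-led cluster at 1001 and 22 CPM.

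Zbtb20 (chr16:42875881-43642602 on the plus strand), the repressor that hippocampal pyramidal identity needs, differed between the classes barcode by barcode. Its level was 1352 CPM (1300 to 1407) in Neurod1-high Lhx9-positive barcodes, 281 CPM (271 to 291) in Reln-high barcodes and 139 CPM (135 to 142) in other neurons. The ratio over other neurons was 9.76-fold (9.31 to 10.2) for the first class, and only 15 of 10709 genes had a higher ratio. After thinning, Neurod1-high Lhx9-positive barcodes held between 0 and 38 UMIs with a median of 14, Reln-high barcodes between 0 and 15 with a median of 2, and other neurons between 0 and 39 with a median of 0. At least 1 UMI was found in 98.9% (93.8 to 99.97%), 80.8% (76.9 to 84.3%) and 27.7% (25.9 to 29.6%) of thinned barcodes, and in 98.9%, 89.9% and 33.4% without thinning. The lowest share among clusters was 14.3% in the Akap7-led cluster, and all 3 classes lay above it. In Reln-high barcodes Zbtb20 was 2.03-fold (1.94 to 2.12) above other neurons, an interval that holds 2, so its place among the genes past 2-fold rests on a narrow margin. It fell below 2-fold under 4 of 16 alternatives and rose to 4.91-fold when clusters replaced the gates.

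Other neurons were not uniform in Zbtb20. Of the 162 barcodes with at least 10 thinned Zbtb20 UMIs, 71 were Neurod1-high Lhx9-positive, 8 were Reln-high and 78 were other neurons, and 132 lay in the Neurod1-led cluster. The 145 other neurons of the Neurod1-led cluster had 894 CPM of Zbtb20. By contrast, those of the Caln1-led, Akap7-led and Fezf2-led clusters had 23.1, 25.3 and 30.5 CPM. Those of the Rnd2-led cluster were between these at 180 CPM.

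Prox1 (chr1:190118035-190170714 on the minus strand), the dentate granule factor, was the raised gene with a UMI in the smallest share of thinned barcodes in each class. It was at 33.3 CPM (25.5 to 42.8; 61 UMIs) in Neurod1-high Lhx9-positive barcodes, 4.91 CPM (3.73 to 6.35; 58 UMIs) in Reln-high barcodes and 3.32 CPM (2.78 to 3.93; 134 UMIs) in other neurons. The first class exceeded other neurons 10.1-fold (7.30 to 13.7). Reln-high barcodes exceeded them 1.48-fold (1.07 to 2.03), short of the 2-fold mark. Thinned barcodes with a Prox1 UMI made up 17.0% (9.87 to 26.6%), 4.53% (2.82 to 6.84%) and 2.08% (1.54 to 2.74%) of the classes, with a highest count of 7, 2 and 7 UMIs and a median of 0 in each. The lowest share in a cluster of over 100 barcodes was 0.278%, in the Fezf2-led cluster. Prox1 was thus detected in a minority of barcodes, and 29 of the 33 barcodes with at least 2 thinned Prox1 UMIs lay in the Neurod1-led cluster.

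Within the Neurod1-high Lhx9-positive class, Prox1 was found in the shallower barcodes. The 70 barcodes of at most 25000 UMIs had 47.3 CPM (36.0 to 61.0), and the 18 deeper ones had 3.43 CPM (0.416 to 12.4), from 2 UMIs that came from the same barcode. Zbtb20 was at 1486 and 1067 CPM in these subsets, and Mef2c at 65.7 and 178 CPM. The part of depth in these differences was not tested. Prox1 also followed Calb2, the calretinin gene, with 57.1 CPM (42.2 to 75.4) in the 46 barcodes with at least 5 thinned Calb2 UMIs and 12.4 CPM (6.38 to 21.6) in the other 42.

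The Lhx9 requirement moved the Prox1 value. Neurod1-high barcodes without a Lhx9 UMI and with Reln under the cut numbered 36, and they had 110 CPM of Prox1 (85.5 to 139), with a UMI in 55.6% of thinned barcodes. Their Zbtb20 level was 1426 CPM, close to the 1352 CPM of the class. Since these barcodes count among other neurons, dropping the requirement raised the log2 ratio of Prox1 from 3.33 to 5.04. Their median depth was 16028 UMIs against 19271 for the class, and the part of depth in the split by Lhx9 was not tested.

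In the Neurod1-led cluster and in other neurons, barcodes with Prox1 more often held much Zbtb20. In the Neurod1-led cluster, at least 10 thinned Zbtb20 UMIs were present in 94.7% (82.3 to 99.4%) of 38 barcodes with a Prox1 UMI and in 47.5% (40.5 to 54.7%) of 202 without. The barcodes with Prox1 were the shallower ones, at a median of 14217.5 UMIs against 26193, and the part of depth was not tested. Among all other neurons the shares were 44.9% of 49 and 2.43% of 2308, at closer depths of 14276 and 15180.5 UMIs. In Reln-high barcodes 1 of 21 with Prox1 and 7 of 443 without held that much Zbtb20. Lef1 showed no such link in the cluster, being detected in 10.5% (2.94 to 24.8%) of barcodes with Prox1 and 13.4% (9.0 to 18.9%) of those without.

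Summed levels of Zbtb20 rose over bins of Neurod1 level on both sides of the class cut. When all neurons with Reln under 5 per 10000 were ordered by their Neurod1 level, Zbtb20 was at 51.0 CPM below 1 Neurod1 UMI per 10000, 333 CPM from 1, 754 CPM from 2, 1153 CPM from 5 and 1743 CPM from 10 upward. Mef2c went the other way over the same bins, at 725, 394, 195, 109 and 88.5 CPM. Prox1 stayed at 1.48, 2.55 and 2.47 CPM in the 3 lowest bins, was at 9.01 CPM from 5, and reached 128 CPM (106 to 153) in the 56 barcodes of the highest bin. Lef1 was at 4.19 CPM (3.54 to 4.93) in the lowest bin and then between 19.0 and 24.0 CPM, with overlapping intervals. The 3 raised genes thus had differing profiles along Neurod1, with steps at different bins. Nfix was at 1158 CPM in the lowest bin and 1559 CPM in the highest. From lowest to highest, the bins had median depths of 14934, 18064.5, 21619, 20582.5 and 15544 UMIs, and the part of depth was not tested. Sums over a bin do not show whether single barcodes changed by degrees.

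**Figure D4:**
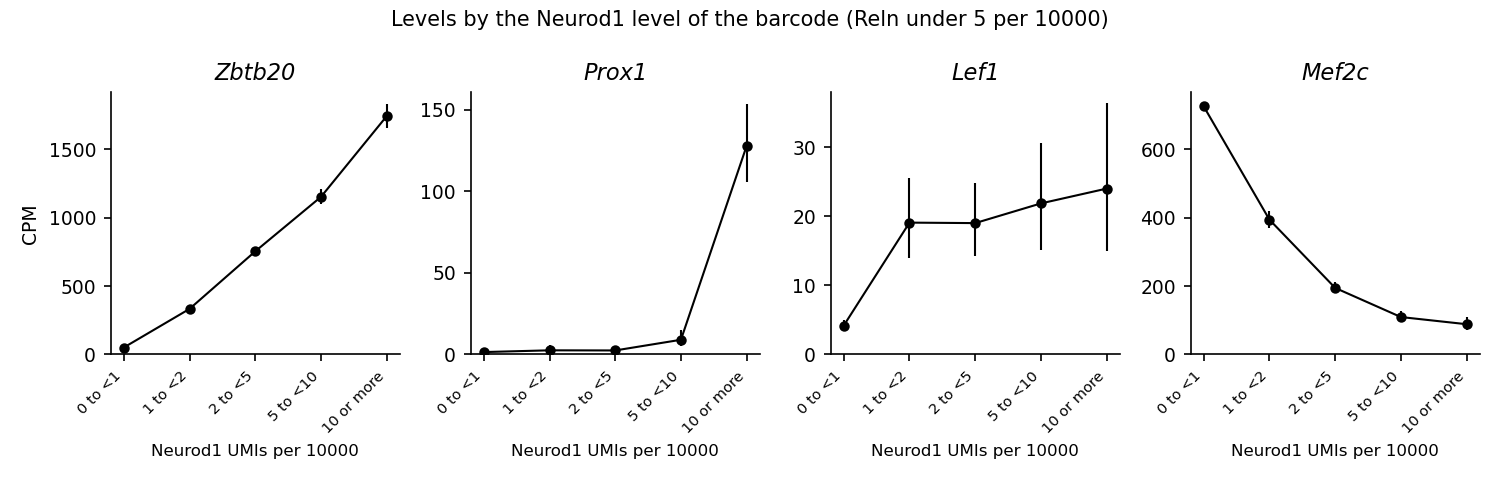
Levels of Zbtb20, Prox1, Lef1 and Mef2c (CPM, linear axes from 0) in barcodes binned by Neurod1 UMIs per 10000, with exact Poisson intervals at 95%. The bins hold 2099, 110, 112, 68 and 56 barcodes with Reln under 5 per 10000; Zbtb20 climbs over all bins, Prox1 is high in the last bin alone at 128 CPM, and Mef2c falls from 725 to 88.5 CPM.

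Lef1 (chr3:131110471-131224356 on the plus strand), the nuclear effector of Wnt signals, was low but raised in both gated classes. It was at 24.6 CPM (17.9 to 32.9; 45 UMIs) in Neurod1-high Lhx9-positive barcodes, 14.4 CPM (12.3 to 16.7; 170 UMIs) in Reln-high barcodes and 6.31 CPM (5.56 to 7.14; 255 UMIs) in other neurons. Over other neurons this was 3.90-fold (2.77 to 5.37) and 2.28-fold (1.87 to 2.78). Thinned barcodes with a UMI made up 21.6%, 10.3% and 4.84% of the classes. The lowest share was 0.587% in the Caln1-led cluster, so other neurons were again mixed, with 16.0 CPM in those of the Rnd2-led and the Neurod1-led cluster and 0.926 CPM in those of the Caln1-led cluster.

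Of its relatives, Tcf7l2 was at 1.64 CPM (3 UMIs) in the Neurod1-high Lhx9-positive class, 6.60 CPM in Reln-high barcodes and 30.4 CPM in other neurons. Tcf7l2 and Lef1 therefore differed in opposite directions in both classes. Of 4 measured TCF/LEF genes, Lef1 and Tcf7l1 were at least 2-fold higher in the Neurod1-high Lhx9-positive class, and Tcf7l2 was at least 2-fold lower. In Reln-high barcodes Lef1 was higher, while Tcf7l1 and Tcf7l2 were lower, all by at least 2-fold. Tcf7l1 rested on 4 and 2 UMIs in these classes. Among 4 measured Wnt response genes, Nkd1, a feedback inhibitor of the pathway, was at 56.8 CPM in the Neurod1-high Lhx9-positive class against 14.3 CPM in other neurons (104 and 576 UMIs). Sp5 also passed 2-fold, on 2 UMIs, while Axin2 and Ctnnb1 did not. In Reln-high barcodes 0 of the 4 passed. List genes were counted from 10 UMIs over both classes. Of all genes at that minimum 8.48% were at least 2-fold higher in the Neurod1-high Lhx9-positive class and 11.1% in the Reln-high class. The shares at least 2-fold lower were 7.11% and 8.12%.

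Within Reln-high barcodes, Lef1 and Prox1 varied with Rspo3 and Cdkn1a, genes that were chosen with earlier results known. The 102 barcodes with a UMI of both had 29.8 CPM of Lef1 and 14.4 CPM of Prox1 (9.56 to 20.8), and the 159 with neither had 8.52 and 1.42 CPM (0.521 to 3.09). Zbtb20 was at 390 and 248 CPM in these subsets. Those with neither were the deeper barcodes, with a median of 23728 UMIs against 16493.

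Zbtb18 (chr1:177442351-177450764 on the plus strand), a repressor relative of Zbtb20 known from cortical neuron differentiation, had the reverse order in Reln-high barcodes. It was at 241 CPM (219 to 264) in Neurod1-high Lhx9-positive barcodes, 71.0 CPM (66.3 to 76.0) in Reln-high barcodes and 159 CPM (156 to 163) in other neurons. Reln-high barcodes were thus 2.24-fold lower than other neurons, while the Neurod1-high Lhx9-positive class was 1.51-fold (1.37 to 1.66) higher. At least 1 UMI was found in 93.2%, 38.1% and 71.4% of thinned barcodes, against a lowest share of 23.5% in the Snhg11-led cluster. The thinned counts ran from 0 to 6, 0 to 6 and 0 to 8 UMIs with medians of 2, 0 and 1. Zbtb20 and Zbtb18 were thus both above other neurons in the Neurod1-high Lhx9-positive class and on opposite sides of them in Reln-high barcodes.

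**Figure D5:**
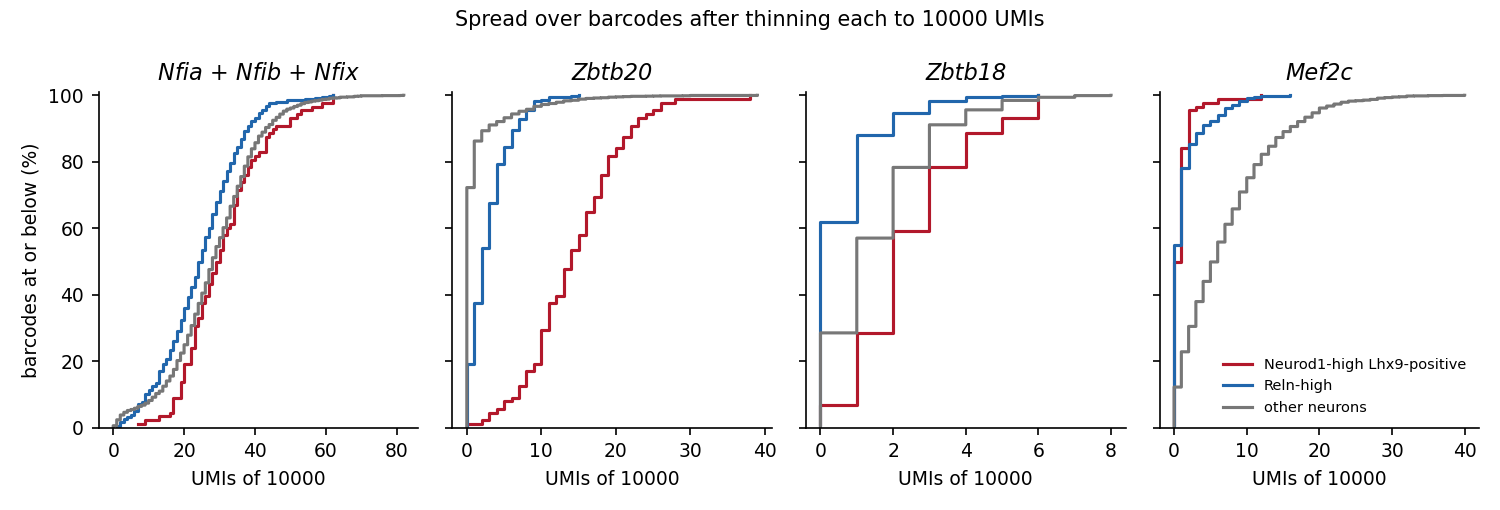
Cumulative share of barcodes (y axis, %) at or below a given number of UMIs (x axis) after each barcode was thinned to 10000 UMIs, for the NFI sum, Zbtb20, Zbtb18 and Mef2c in Neurod1-high Lhx9-positive (red), Reln-high (blue) and other (grey) neurons. The NFI curves run close together, the Zbtb20 medians are 14, 2 and 0, and for Mef2c only other neurons have a median of 6.

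Mef2c (chr13:83504034-83667080 on the plus strand) was the gene with the lowest ratio in Reln-high barcodes. It was at 102 CPM (87.5 to 117) in Neurod1-high Lhx9-positive barcodes, 157 CPM (150 to 164) in Reln-high barcodes and 659 CPM (651 to 667) in other neurons. Other neurons were 6.48-fold above the first class and 4.2-fold above the second, and only 78 of 10709 and 38 of 11183 genes had a lower ratio. The thinned counts had a median of 0.5 in Neurod1-high Lhx9-positive barcodes (lowest 0, highest 12), 0 in Reln-high barcodes (0 to 16) and 6 in other neurons (0 to 40). A single barcode gave 20.4% of the Mef2c UMIs of the Neurod1-high Lhx9-positive class. Shares with a UMI after thinning were 50%, 45.04% and 87.7%, and the lowest among clusters was 40.9% in the Reln-led cluster. No cluster lacked Mef2c, so its share from free RNA cannot be read from a cluster without it.

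Among other neurons Mef2c was highest in the Caln1-led cluster, at 1216 CPM, followed by the Akap7-led cluster at 964 CPM and the Fezf2-led cluster at 563 CPM. Of 695 barcodes with at least 10 thinned Mef2c UMIs, 324 lay in the Akap7-led and 209 in the Caln1-led cluster. In Reln-high barcodes Mef2c was at 214 CPM in the 179 above 25000 UMIs and at 76.1 CPM in the 285 at or below that depth. Zbtb18 differed in the same way, at 96.3 against 35.3 CPM, and so did Meis2, at 60.3 against 31.4 CPM, while Zbtb20 was at 286 against 274 CPM. Barcodes holding Xist (5 UMIs or more) together with Y-linked genes (2 UMIs or more), which a single embryo's cell should not hold, made up 12.9% of Reln-high barcodes and 2.84% of other neurons, and their part in this split was not tested. Without the deeper barcodes the log2 ratio of Mef2c over other neurons was -3.20 in place of -2.07. By Reln level, Mef2c was at 753 CPM from 2 to under 5 Reln UMIs per 10000 and at 273, 159 and 123 CPM from 5, 10 and 20 upward. In the MEF2 family Mef2c alone of 3 measured genes passed 2-fold in either class.

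Meis2 (chr2:115863064-116065839 on the minus strand), a homeodomain factor, was lower in both gated classes. It was at 66.1 CPM (54.9 to 79.0) in Neurod1-high Lhx9-positive barcodes, 48.3 CPM (44.5 to 52.5) in Reln-high barcodes and 164 CPM (160 to 168) in other neurons. This was 2.48-fold and 3.4-fold below other neurons. A UMI was present in 42.0%, 22.6% and 58.2% of thinned barcodes, against a lowest share of 19.9% in the Reln-led cluster. Among the large clusters it was highest in the Snhg11-led cluster at 394 CPM and in the Rnd2-led cluster at 280 CPM, but the pattern within them differed, with a UMI in 50.3% of Snhg11-led and 86.6% of Rnd2-led barcodes. The Snhg11-led cluster thus held fewer but richer barcodes.

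Meis1 (chr11:18879817-19018985 on the minus strand), the close relative of Meis2, was rare everywhere. There were 0 UMIs in the Neurod1-high Lhx9-positive class, which allows up to 2.02 CPM. Reln-high barcodes had 17 UMIs at 1.44 CPM (0.838 to 2.304) and other neurons 178 UMIs at 4.41 CPM (3.78 to 5.10). With all barcodes counted, other neurons were 2.69-fold above the bound of 3 counts (1.64 CPM) in the Neurod1-high Lhx9-positive class. They were 3.06-fold above Reln-high barcodes, where a single barcode gave 35.3% of the UMIs. A UMI was found in 0 of 88 thinned barcodes of the first class, which allows a share of up to 4.11%, and in 1.29% and 2.25% of the others. Of the 20 barcodes with at least 2 thinned Meis1 UMIs, 19 lay in the Snhg11-led cluster, where the level was 41.9 CPM (35.4 to 49.4) against 2.53 CPM in the next large cluster. The 30 Snhg11-led barcodes with a Meis1 UMI had 560 CPM of Meis2 against 358 CPM in the 149 without, and a median NFI sum of 2 against 3. Both differences rested on this cluster, which held 142 other neurons, 36 Reln-high barcodes and 0 of the 88. Outside it, other neurons had 1.14 CPM of Meis1 (0.826 to 1.54; 43 UMIs) and Reln-high barcodes 0.809 CPM (0.37 to 1.53; 9 UMIs), a ratio of 1.41 (0.679 to 3.29). The 1.14 CPM also lay under the 1.64 CPM of 3 counts in the Neurod1-high Lhx9-positive class, so that no difference in Meis1 was detectable there at this depth.

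Relatives and partners of the MEIS proteins were measured as well. Pbx3, a homeodomain partner, was at 1.64 CPM (3 UMIs) in the Neurod1-high Lhx9-positive class, 7.37 CPM in Reln-high barcodes and 16.8 CPM in other neurons, so that it was lower in both gated classes, as Meis2 was. Pknox2, a more distant relative, was higher in Reln-high barcodes, at 39.3 CPM against 5.62 CPM in other neurons.

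A list of genes used for the hippocampal primordium and the cortical hem was set beside the 10. In the Neurod1-high Lhx9-positive class 5 of its 6 measured genes were at least 2-fold above other neurons, against 8.48% of all genes with at least 10 UMIs. Emx2 was at 137 against 21.5 CPM, Lhx2 at 384 against 90.3 CPM and Emx1 at 193 against 72.9 CPM. These 3 were thus present in other neurons as well. Lmx1a and Wnt8b rested on 3 and 4 UMIs, and the interval of Lmx1a (0.773 to 14.5) held 1. The region of origin of the class was not tested. In Reln-high barcodes 3 of 6 were at that size (Emx2, Lhx2 and Lmx1a), with Emx2 at 248 CPM, and Emx1 was at 38.1 CPM. Of 10 measured markers of the hippocampal fields, 3 were higher in the Neurod1-high Lhx9-positive class (Dsp, Grik4 and Nr3c2) and 1 was lower (Tdo2, on 2 UMIs), against 8.48% and 7.11% of all genes. Of the 3, only Grik4 had an interval clear of 1, since those of Dsp (0.801 to 4.46) and Nr3c2 (0.634 to 6.84, on 4 UMIs) held it. Grik4, a kainate receptor subunit, was at 30.1 CPM against 4.08 CPM in other neurons and 4.995 CPM in Reln-high barcodes. Dsp, a desmosome gene found in dentate granule cells, was at 3.82 CPM in the class (7 UMIs) and at 28.7 CPM in Reln-high barcodes. Reln-high barcodes had 3 field markers higher (C1ql2, Dsp and Wfs1) and 1 lower (Tdo2), against 11.1% and 8.12% of all genes. Among genes linked to NFI function (Ezh2, Hes1, Sox9 and Fabp7 were measured), 0 of 4 passed 2-fold in the Neurod1-high Lhx9-positive class, while in Reln-high barcodes Sox9 was higher and Fabp7 and Hes1, the latter on 2 UMIs, were lower.

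The genes whose counts went most closely with each of the 10 were sought over all 2931 thinned barcodes, among 7576 genes with a UMI in at least 10% of them. These correlations of log counts describe 1 pooled library and carry no test. Nfib and Nfix were most like each other (r = 0.64), and Nfia was most like Nfib (r = 0.44) and Nfix (r = 0.40). Zbtb20 was most like Neurod1 (r = 0.64), Cd9 (r = 0.54) and Calb2 (r = 0.52), and Prox1 was most like Neurod1 (r = 0.36) and Zbtb20 (r = 0.32). Mef2c went with Sybu (r = 0.60), Cdh13 (r = 0.54) and Rprm (r = 0.48). Zbtb18 went with Tmsb4x, Neurod6 and Neurod2 (r = 0.36, 0.36 and 0.32) and Meis2 with Sox11 (r = 0.35), whereas Lef1 and Meis1 had no gene at 0.3 or above. Zbtb20 and Mef2c had the most negative correlation among the 10, at -0.46 over all barcodes, -0.34 over other neurons and -0.24 over Reln-high barcodes. With Zbtb20, r was 0.47 for Nfix and 0.38 for Nfib over 464 Reln-high barcodes, and 0.08 and -0.06 over 2357 other neurons.

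Several of the 10 loci overlap other annotated genes on the opposite strand, and the sources used here do not say whether counting used strand. Over the kept barcodes the overlapping genes held 1427 UMIs (E130114P18Rik, at Nfia), 1508 UMIs (Gm11266, at Nfib), 265 UMIs (Gm26801, at Zbtb18) and 160 UMIs (Prox1os, at Prox1). What part of the counts of the 10 genes, if any, came from the opposite strand was not tested.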

How the data were processed

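The authors sorted Ebf2-EGFP positive cells, ran them on the 10x Genomics Chromium platform and deposited the UMI counts of each gene in each barcode, raw and not normalized. The submitters' processing notes name Cell Ranger 2.0.0, Seurat 2.0 and mm10. The matrix held 3000 barcodes with 57180867 UMIs, between 10718 and 76690 per barcode (median 15832), all with 1 barcode suffix and with 0 barcodes listed more than once. The study states about 3000 processed cells.

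A filter of 1000 genes or more and no more than 10% mitochondrial UMIs removed 0 barcodes. Likely doublets were taken as the top 2.3% of Scrublet scores (69 barcodes; the automatic threshold called 2), which left 2931. Classes were set by gates on Reln, Neurod1 and Lhx9. The study's cluster annotation was not used here, and rebuilt clusters may differ from it. Barcodes with cycling or radial glia genes at 10 or more, haemoglobin at 100 or more, or non-neuronal lists at 20 or more UMIs per 10000 were left out of other neurons. UMIs were summed per class as CPM (UMIs per 1000000), with intervals from the exact Poisson method for levels, the conditional binomial for ratios and Clopper-Pearson for shares. UMIs of 1 class are not independent of the animal, so these intervals cover counting error only. Thinning drew 10000 UMIs per barcode. For a class at 0, a fold was bounded by 3 counts over the class. List genes with at least 10 UMIs in a pair of classes counted as measured, and all genes with at least 100 UMIs gave the background. K-means (8 clusters, 20 principal components, 2000 variable genes) left out the 10 genes. The tools were scipy 1.17.1, scikit-learn 1.9.0, scanpy 1.11.5 and Python 3.11.15, and the ratio and thinning steps were tested on simulated data.

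The 10 genes and the gene lists were chosen with earlier results of these data known. All 10 genes were named, with at most 4 values for other genes of a list and up to 3 genes per gene for likeness at r of 0.3 or more. Some items are not reported here. Coordinates are from GENCODE M21 (GRCm38), where 27645 of 27998 identifiers were found.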

Additional observations from a re-analysis of the deposited data

How the results depend on the processing

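The log2 ratio of each of the 10 genes over other neurons was recomputed in both classes under 16 alternatives, which gave 320 values. None reversed a ratio past 2-fold, 306 stayed on the same side of 2-fold and 14 did not. Of 64 recomputed counts of genes past 2-fold, 60 were within 1.5 times the reported count. The count higher in Reln-high barcodes was 1 in place of 2 with a Reln cut of 3 or of 10 UMIs per 10000, with a Neurod1 cut of 10, and without doublet removal, since Zbtb20 then lay under 2-fold (log2 ratio down to 0.84). Prox1 passed 2-fold there under 4 alternatives, with a log2 ratio of 2.55 when clusters replaced the gates, and Zbtb18 fell short of 2-fold without doublet removal, at -0.99. The bound for Meis1 in Neurod1-high Lhx9-positive barcodes was under 2-fold in 4 alternatives. Leaving out the Snhg11-led cluster, an alternative chosen after seeing the data, ended the calls of Meis1 in both classes (log2 ratio -0.50 in Reln-high barcodes, no bound left in the other) and no other call. The smallest and largest log2 ratios of the genes raised in that class were 3.2 and 4.28 for Zbtb20, 2.74 and 5.04 for Prox1, and 1.57 and 2.32 for Lef1. With genes of at least 10 UMIs, the shares of all genes past 2-fold ran from 6.68% to 12.6%, against 3.78% to 9.3% as reported.

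No paired analysis was possible because the 8 labelled samples share 1 matrix with no map from barcodes to samples, so leaving out each sample in turn had no value either. Depth limits the rare genes: Prox1, Lef1 and Meis1 rest on 61, 45 and 0 UMIs in the 88 Neurod1-high Lhx9-positive barcodes.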
